A study of Mus musculus with 3 samples.

Results

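Collagens are the structural proteins of the extracellular matrix, each wound from alpha chains that different genes encode. In the periodontal ligament, which ties the tooth root to the jaw bone, bundles of fibrillar collagen carry the load of chewing, and smaller collagens coat those fibrils, form sheets under cells or anchor one structure to another. A chain is hydroxylated and folded in the endoplasmic reticulum, secreted as a procollagen, trimmed and then crosslinked outside the cell. BMP-2 is a bone morphogenetic protein that drives ligament cells towards bone formation, and endoglin is an accessory receptor of the TGF-β family.

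The genes described here are the 42 collagen alpha chain genes of the mouse array, taken as every gene with a symbol of the form Col, a number, a and a number on a probe set annotated to that gene alone. They were 42 of 18193 named genes and were read by 82 of 34945 probe sets. By structure, 11 were fibrillar and 9 were FACIT chains, the fibril-associated collagens with interrupted helices. A further 6 were basement membrane chains of type IV, and the other 16 covered beaded filaments, anchoring fibrils, short-chain networks, multiplexins and transmembrane collagens. A gene was read by its probe set of highest mean log2 signal, which used no difference between arrays.

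PDL-L2, an immortalised fibroblast line from mouse periodontal ligament, was measured on 1 array in each of 3 conditions. The cells were kept in alpha-MEM with 10% serum and transfected with a pool of non-targeting siRNA (siCont) or of siRNA against endoglin (siENG). After 48 h they were placed in differentiation medium with ascorbic acid and beta-glycerophosphate for 12 h. The siCont cells received vehicle on 1 array and recombinant human BMP-2 at 250 ng/ml on another, and the siENG cells received the same dose of BMP-2. No siENG culture with vehicle was analysed here, and the line was the only cell source. With 1 array per condition no difference had a replicate check, and no p-value is given.

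Endoglin (Eng), the targeted gene, had signals of 286.3 with vehicle, 298.5 with BMP-2 and 108.2 after siENG on its brighter probe set. Its second probe set gave 120.6, 120.5 and 45.3, so both placed it lower on the siENG array. The median signal of the arrays lay between 22.5 and 23.8 and the 2% trimmed mean between 140 and 165, highest with siENG. The ratio of 3′ to 5′ Gapdh signal, which reflects RNA integrity, was 0.758 with vehicle, 0.774 with BMP-2 and 0.804 after siENG. Of 9 matched markers of fibroblasts and periodontal ligament 6 were past the signal limit given in the next paragraph (Vim, Pdgfra, Pdgfrb, S100a4, Postn and Scx), while Thy1, Dcn and Aspn were not. Of the markers of epithelial and endothelial cells none passed it. Of 6 matched leukocyte markers Cd68 and Csf1r passed, and the list had summed signals of 132 with vehicle, 120 with BMP-2 and 212 after siENG, with Ptprc, which all leukocytes carry, at 4.2, 0.9 and 8.1. Of 3 muscle markers Des passed, with 53.5, 13.9 and 74.2. The part of such markers in the differences with siENG was not tested.

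A gene was counted as past the limit when its log2 signal averaged over the 3 arrays was at or above that of 23.0, the median of all signals. That held for 20 of the 42 collagen genes and for 10332 genes in all. The collagens past the limit were 8 fibrillar chains, 3 FACIT chains, 3 basement membrane chains and 6 others. Their probe sets gave signals from 11.5 to 10255.2, and signals of different probe sets do not rank genes by abundance. The limit fell between Col2a1, with a mean log2 signal of 4.58, and Col4a6, with 4.41, the limit being 4.52. Col2a1 passed it only through the arrays with BMP-2, since its vehicle signal lay below.

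The other 22 collagen genes were dim on all 3 arrays, with signals from 0.5 to 28.5. The fibrillar chains among them were Col11a1, Col11a2 and Col24a1, and the FACIT chains were Col9a2, Col9a3, Col14a1, Col19a1, Col20a1 and Col22a1. Among the basement membrane chains Col4a3, Col4a4 and Col4a6 were dim. The remaining ones were Col6a4, Col6a5, Col8a2, Col10a1, Col13a1, Col15a1, Col17a1, Col23a1, Col25a1 and Col26a1. They include Col10a1, the chain of hypertrophic cartilage, Col17a1, a chain of epithelial hemidesmosomes, and Col11a1 and Col11a2, which share fibrils with type II collagen in cartilage. For 13 of the 22 the signals on all arrays lay within the range of 27 control probe sets for Bacillus transcripts, which mouse cells do not make, with a highest signal of 13.1. Col25a1, 1 of the 13, had a second probe set with 13.7 on the vehicle array, just above that range, so 12 genes lay within it on every probe set. No ratio is read from the 22 genes, and for those 12 expression was not detectable at this signal.

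**Figure D1:**
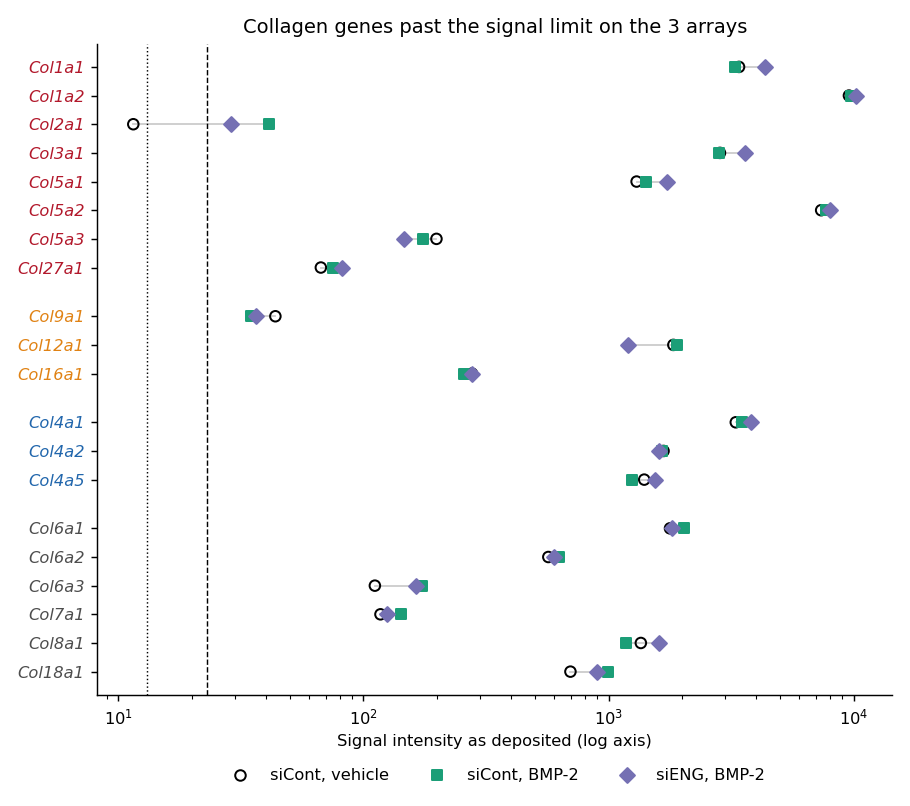
Signal intensity of the 20 collagen genes past the signal limit on each of the 3 arrays, on a log axis, with gene names coloured by class (red fibrillar, orange FACIT, blue basement membrane, grey other). Circles are vehicle, squares BMP-2 and diamonds siENG with BMP-2. The dashed line marks the limit of 23.0 and the dotted line the highest Bacillus control signal of 13.1. For most genes the symbols nearly coincide, while Col2a1 spans 11.5 on the vehicle array to 41.1 with BMP-2, and Col12a1 stands at 1202.3 on the siENG array.

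After 12 h with BMP-2 most collagen genes had signals close to those with vehicle. Of the 20 genes past the limit, 12 had a log2 ratio of BMP-2 over vehicle above 0 and 8 below 0. Of 10332 genes in all, 5341 were above 0 and 4977 below. The collagen median was 0.06 beside 0.01 over all genes. Only Col2a1 reached a ratio of 2, and none fell to 0.5 or less, where 0.978% and 0.590% of all genes did. At a ratio of 1.5 Col6a3 joined Col2a1, and none was at the inverse, beside 3.53% and 3.02% of all genes. Col2a1 passed the limit only through the arrays with BMP-2, where its signal was higher. Without it 0 of 19 genes reached a ratio of 2 and 1 reached 1.5, with a median of 0.05. As whole cultures were measured, a change in RNA per cell and a change in the share of cells that make it cannot be told apart.

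Precision depended on signal. For want of replicates it was described by the robust SD of log2 ratios over genes of similar mean signal, which fell from 0.55 in the dimmest of 20 bins to 0.09 in the brightest for BMP-2 over vehicle, and from 0.64 to 0.18 for siENG over siCont. This spread holds real differences between conditions as well as noise. Counted by a distance of 2 such SDs from the median gene, a measure added after the values were seen, Col2a1, Col6a3 and Col18a1 were higher with BMP-2 and none was lower, beside 5.04% and 4.39% of all genes. Col2a1 enters these counts by the limit it passed through the BMP-2 arrays, with a bound of at least 3.0 SDs. Of the other 19 genes 2 were higher by this measure, and 0 reached a ratio of 2. Within 1 SD lay 65% of the collagen genes and 66.2% of all genes.

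With endoglin siRNA, both arrays having BMP-2, the collagen genes held few large differences, and the widest of the 20 was that of Col12a1, with a lower signal after siENG. No collagen gene reached a ratio of 2 or of 0.5, beside 2.87% and 0.610% of all genes. At a ratio of 1.5 none was higher, beside 16% of all genes, and Col12a1 was lower, beside 2.95%. Signals on the siENG array were brighter in general, by a median log2 ratio of 0.24 over all genes past the limit, and how the arrays were scaled could not be read from the sources used here. The collagen genes had a median of 0.06, with 11 above 0 and 9 below, beside 7882 and 2440 of 10332 genes in all.

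The direction of these small differences therefore turned on the scale. Relative to the median gene, that is after 0.24 was subtracted, 5 collagen genes were above 0 (Col8a1, Col1a1, Col3a1, Col4a5 and Col5a1) and 15 below, with a median of -0.18. On that scale no collagen gene reached a ratio of 2 or 0.5, beside 1.36% and 1.64% of all genes. At 1.5 none was higher, beside 5.54%, and Col12a1 and Col2a1 were lower, beside 7.15%. By 2 robust SDs none was higher, beside 3.31%, and only Col12a1 was lower, beside 4.79%, so that 1 of 20 is a share like that of all genes, while 55% of collagen genes and 66.5% of all genes lay within 1 SD. By class the relative medians were -0.15 for fibrillar, -0.17 for FACIT, -0.12 for basement membrane and -0.36 for other collagens. The siCont BMP-2 array enters both comparisons, so a high or low signal on it moves both ratios in opposite directions.

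**Figure D2:**
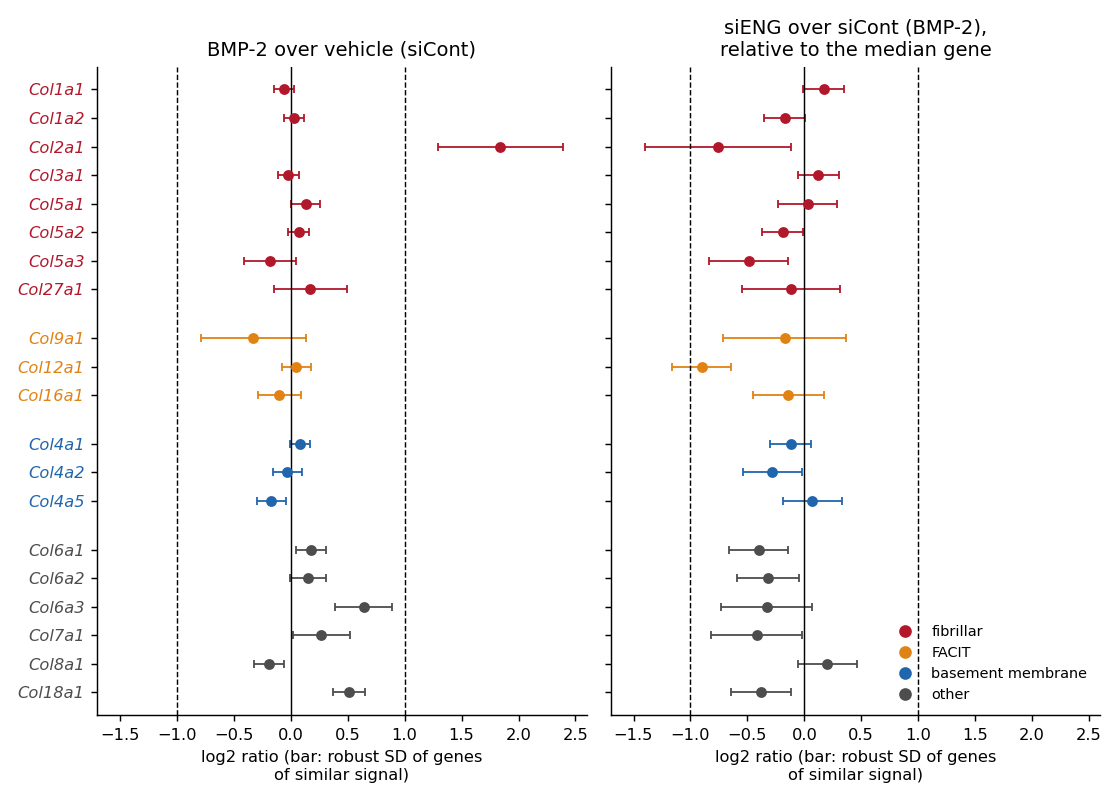
Log2 ratios of the 20 collagen genes past the signal limit for BMP-2 over vehicle as deposited (left) and for siENG over siCont relative to the median gene (right). Points are coloured by class, bars are 1 robust SD of genes of similar signal, and dashed lines mark ratios of 0.5 and 2. Col2a1 is drawn from its measured signals although its vehicle signal allows only a bound. On the left Col2a1, Col6a3 and Col18a1 lie more than 2 SDs above the median gene, and on the right Col12a1, at -0.90, is the only gene more than 2 SDs from it.

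Among the fibrillar chains, the main fibre formers of ligament differed little between vehicle and BMP-2. Col1a1, the major chain of type I collagen, had signals of 3407.8 with vehicle, 3277.9 with BMP-2 and 4361.4 after siENG plus BMP-2. Its partner Col1a2 had 9569.0, 9772.8 and 10255.2 in the same order. Col3a1, the chain of type III collagen, which mixes with type I in stretchy tissues, had 2848.6, 2813.6 and 3608.3. The log2 ratios of BMP-2 over vehicle were -0.06 for Col1a1, 0.03 for Col1a2 and -0.02 for Col3a1, all within the SD of 0.09 at this signal.

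The siENG array was the highest of the 3 for each of these chains. Over siCont with BMP-2 the log2 ratio was 0.41 for Col1a1, 0.36 for Col3a1 and 0.07 for Col1a2 as deposited, and 0.17, 0.12 and -0.17 relative to the median gene, beside an SD of 0.18. Col1a2 thus changed sign with the scale. A second probe set of Col1a1 gave 476.2, 425.5 and 756.7, which is 0.83 on the log2 scale for siENG over siCont. A second probe set of Col1a2 gave -0.03, and a dimmer one, with 278.3, 363.1 and 260.0, gave -0.48.

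Type V collagen is a minor fibril component that limits fibril width. Col5a1 had signals of 1301.7 with vehicle, 1427.4 with BMP-2 and 1728.0 after siENG plus BMP-2, and Col5a2 had 7372.2, 7740.9 and 8018.7. Both followed the same order of arrays, with log2 ratios for BMP-2 of 0.13 and 0.07, at or within the SDs of 0.13 and 0.09. Col5a3, a further chain of restricted expression, ran the other way, with 198.5 on the vehicle array, 174.8 with BMP-2 and 146.8 after siENG plus BMP-2. Its log2 ratio of siENG BMP-2 over vehicle was -0.44 as deposited and -0.69 relative, beside an SD of 0.38.

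The direction of Col5a1 on the siENG array was not settled by its probe sets. For siENG over siCont the probe set used gave 0.28 on the log2 scale, and the other 2 past the limit gave -0.19 and -0.31. Col27a1, a fibrillar chain of developing cartilage, had dim signals of 67.0, 75.4 and 81.8, and its log2 ratios of 0.17 with BMP-2 and 0.12 with siENG lay within SDs of 0.32 and 0.43.

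Col2a1, the chain of type II collagen and the main fibrillar collagen of cartilage, had signals of 11.5 with vehicle, 41.1 with BMP-2 and 28.8 after siENG plus BMP-2. The vehicle signal was within the range of the Bacillus controls and allows only a bound. Against the highest of those controls, 13.1, the measured signal with BMP-2 was at least 3.14-fold higher. After siENG plus BMP-2 it was at least 2.2-fold higher. The bound leaves out error in these higher signals, each from 1 array. Over the processing settings compared at the end, the log2 ratio of Col2a1 went down to 1.05 for BMP-2 over vehicle. For siENG BMP-2 over vehicle it went down to 0.70. The log2 ratio of siENG over siCont was -0.51 as deposited and -0.76 relative, beside an SD of 0.64. Col2a1 was read by 1 probe set.

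Other cartilage genes were as dim. The 7 chondrocyte markers had summed signals of 69.9, 80.9 and 70.1 over the arrays in the same order, none was listed at 0, and only Matn3 was past the limit, with 31.8, 33.6 and 29.7. The aggrecan gene Acan had 7.1, 15.1 and 11.2, and Sox9, a transcription factor that binds the type II collagen gene, had 8.9, 5.5 and 8.4. Of 5 matched osteoblast markers, Sp7 and Alpl were past the limit, and the summed signals of the list were 82.9, 133 and 89.2. The part of cell identity in the signals of Col2a1 was not tested.

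The FACIT chains lie along the surface of fibrils. Col12a1, which links type I fibrils with the matrix around them and is abundant in ligament and tendon, had signals of 1838.4 with vehicle, 1900.4 with BMP-2 and 1202.3 after siENG plus BMP-2. The siENG array was thus the low one and the siCont arrays lay close together. Its log2 ratio of siENG over siCont was -0.66 as deposited and -0.90 relative to the median gene, which is 3.4 robust SDs of 0.26. For BMP-2 over vehicle it was 0.05, beside an SD of 0.13.

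A second probe set of Col12a1 showed the same order, with 848.0, 905.4 and 557.1 and a log2 ratio of -0.70. A further 2 probe sets of the gene gave signals between 0.5 and 4.0 and cannot carry a ratio. Averaging all 4 brought the log2 ratio to -0.29. Col16a1, a FACIT chain of fibroblasts and smooth muscle, had 277.2, 257.9 and 277.8. Col9a1, a chain of the type IX collagen that coats cartilage fibrils, had 43.7, 34.8 and 36.5. Neither differed between any pair of arrays by more than 1 robust SD.

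**Figure D3:**
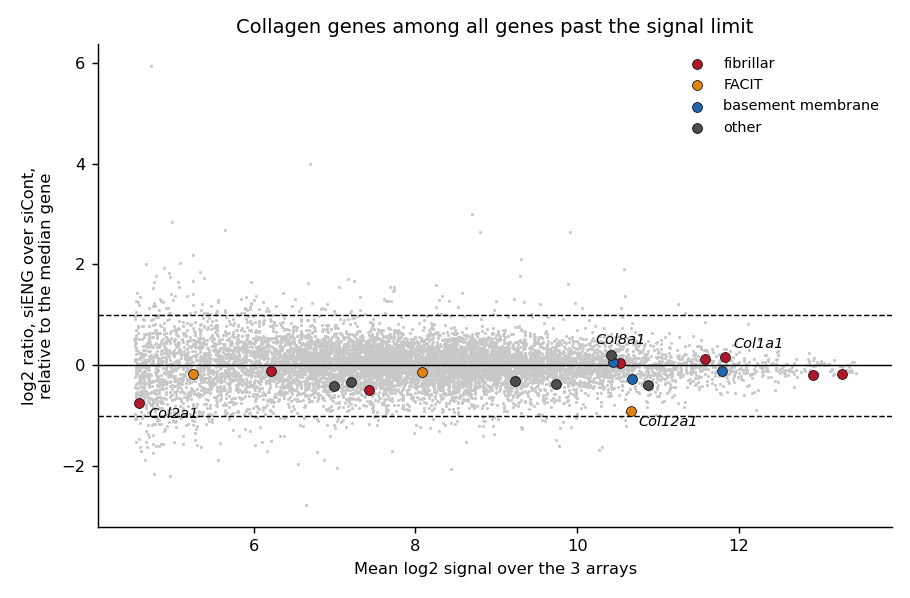
Log2 ratio of siENG over siCont relative to the median gene (vertical axis) against mean log2 signal over the 3 arrays (horizontal axis) for 10332 genes in grey, with the 20 collagen genes coloured by class. Dashed lines mark ratios of 0.5 and 2. The spread narrows as signal grows, and Col12a1, at -0.90, lies well below most genes of its signal while Col2a1, at -0.76, lies among the dimmest genes, where such ratios are common.

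The basement membrane chains of type IV collagen form sheets under cells and around vessels. Col4a1 had signals of 3305.5 with vehicle, 3500.5 with BMP-2 and 3823.0 after siENG plus BMP-2, and Col4a2, its partner in the common network, had 1676.7, 1646.3 and 1608.7. Col4a5, of a more restricted network, had 1398.3, 1241.0 and 1540.0. With BMP-2 their log2 ratios were 0.08, -0.03 and -0.17, beside SDs of 0.09, 0.13 and 0.13. For siENG over siCont they were 0.13, -0.03 and 0.31 as deposited and -0.12, -0.28 and 0.07 relative.

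Col4a1 and Col4a2 stand head to head on mouse chromosome 8 and run in opposite directions. Their annotated starts lie only 21 bases apart, and by the window coordinates the first bases of both genes overlap. The promoter window of Col4a1 is shown because a stretch of 78 bases, in capitals, also lies in the window of Col4a2 on the other strand. It comes from RefSeq, build GRCm38.p6, at chr8:11312777-11313076 on the minus strand, and runs 5′ to 3′ along the Col4a1 strand.
Col4a1: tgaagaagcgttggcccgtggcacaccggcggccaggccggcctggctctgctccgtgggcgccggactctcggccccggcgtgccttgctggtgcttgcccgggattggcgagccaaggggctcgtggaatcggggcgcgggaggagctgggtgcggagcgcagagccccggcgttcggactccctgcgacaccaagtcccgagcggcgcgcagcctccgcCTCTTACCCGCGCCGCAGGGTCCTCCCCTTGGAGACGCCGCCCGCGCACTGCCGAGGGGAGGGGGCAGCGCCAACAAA
The log2 ratios of the pair differed by 0.11 with BMP-2 and by 0.16 with siENG, less than their combined SDs of 0.15 and 0.32. This is not particular to the pair. Of the 7 pairs of partner chains compared below, only 3 with BMP-2 and 2 with siENG over siCont exceeded their combined SD. The part of the shared stretch was not tested. Another head-to-head pair, Col4a5 and Col4a6, has starts 1343 bases apart with no bases shared between the windows. There Col4a5 was past the limit while Col4a6, at 28.5, 14.0 and 24.0, was just under it, so that pair was not compared by ratio.

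Among the remaining collagens were 2 of the 3 genes more than 2 robust SDs higher with BMP-2. In this group 5 of 6 genes past the limit were above 0, with a median log2 ratio of 0.23. Over all genes 5341 of 10332 were above 0, with a median of 0.01. Among the 5 genes, Col6a1, Col6a2 and Col7a1 lay only 1.4, 0.9 and 1.1 robust SDs above the median gene. Col18a1, a multiplexin of basement membranes that carries the endostatin fragment, had signals of 699.0 with vehicle, 993.6 with BMP-2 and 900.1 after siENG plus BMP-2. Its log2 ratio for BMP-2 was 0.51, which is 3.4 robust SDs of 0.14 above the median gene, at a ratio of 1.42. A second probe set gave 454.7, 665.8 and 634.1 and a log2 ratio of 0.55, so vehicle was the low array on both. For siENG BMP-2 over vehicle the brighter probe set gave 0.36 as deposited but 0.11 relative, only 0.4 robust SDs from the median gene. Over siCont with BMP-2, siENG gave -0.14 as deposited and -0.38 relative, within 2 SDs.

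Type VI collagen forms beaded filaments around cells from the chains of Col6a1, Col6a2 and Col6a3. Col6a3 had signals of 111.3 with vehicle, 173.8 with BMP-2 and 163.2 after siENG plus BMP-2, a log2 ratio for BMP-2 of 0.64 beside an SD of 0.25, from 1 probe set. Col6a1 had 1781.4, 2024.3 and 1815.5, and Col6a2 had 567.9, 630.3 and 599.0. On these probe sets the vehicle array was the lowest for all 3 chains as deposited. A second probe set of Col6a2, with 302.0, 325.2 and 297.8, was lowest with siENG. Relative to the median gene siENG BMP-2 over vehicle was -0.23 for Col6a1, -0.18 for Col6a2 and 0.30 for Col6a3. The log2 ratios of Col6a1 and Col6a2 for BMP-2 were 0.18 and 0.15, and that of Col6a3 exceeded them by 0.46 and 0.49, more than the combined SDs of 0.28 and 0.30. With siENG the chains gave -0.16, -0.07 and -0.09 in the order Col6a1, Col6a2 and Col6a3, and -0.40, -0.32 and -0.33 relative, at most 1.5 SDs from the median gene.

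The promoters of the collagens higher with BMP-2 are shown where RefSeq gave them, with capitals for 4 motifs searched on both strands. These were TATAAA, the TATA box, CCAAT, the CCAAT box, CAGAC, a short element that Smad proteins bind, and GGCGCC, a site favoured by the Smads of BMP receptors. Windows run from 250 bases before to 50 after the start, in build GRCm38.p6. That of Col6a3 lies at chr1:90843922-90844221 on the minus strand, and those of 2 starts of Col18a1 at chr10:77166481-77166780 and chr10:77113656-77113955, both on the minus strand.
Col6a3: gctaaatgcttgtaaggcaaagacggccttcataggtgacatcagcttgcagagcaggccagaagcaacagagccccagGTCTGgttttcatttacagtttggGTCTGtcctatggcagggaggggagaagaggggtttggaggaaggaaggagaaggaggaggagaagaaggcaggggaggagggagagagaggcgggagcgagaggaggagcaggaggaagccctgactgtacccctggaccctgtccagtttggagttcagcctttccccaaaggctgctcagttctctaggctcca
Col18a1, first start: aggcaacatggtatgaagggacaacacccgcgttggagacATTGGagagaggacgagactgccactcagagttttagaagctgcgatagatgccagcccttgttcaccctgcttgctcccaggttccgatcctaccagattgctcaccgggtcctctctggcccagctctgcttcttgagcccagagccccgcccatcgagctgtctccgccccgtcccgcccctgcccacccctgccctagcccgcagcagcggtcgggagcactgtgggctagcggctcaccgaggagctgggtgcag
Col18a1, second start: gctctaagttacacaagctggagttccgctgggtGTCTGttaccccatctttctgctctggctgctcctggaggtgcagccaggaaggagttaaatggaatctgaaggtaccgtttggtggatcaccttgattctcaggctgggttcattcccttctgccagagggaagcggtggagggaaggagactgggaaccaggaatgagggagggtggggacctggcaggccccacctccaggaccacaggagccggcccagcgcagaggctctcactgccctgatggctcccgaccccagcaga
The Col6a3 window held CAGAC at 2 places, both as GTCTG on the shown strand. The first Col18a1 window held CCAAT, read as ATTGG, and the second held CAGAC. Such matches are common. The background was 32851 full-length promoter windows of 27025 genes, with those of a single chromosome left out. Of these, 49.6% held CAGAC, 37.4% CCAAT, 13.6% TATAAA and 11.9% GGCGCC. Of 36 promoters of the 33 collagen genes with an entry, 50% held CAGAC, 36.1% CCAAT, 13.9% TATAAA and 13.9% GGCGCC. No entry was given for Col1a1, Col2a1, Col5a2 or Col12a1 among the genes past the limit.

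Col7a1, the chain of anchoring fibrils under epithelia, had signals of 117.3, 141.6 and 124.8, and its log2 ratio for BMP-2 of 0.27 was close to its SD of 0.25. Col8a1, a short-chain collagen of vessel walls and the cornea, was the exception in direction, with 1354.6 on the vehicle array, 1183.4 with BMP-2 and 1610.7 after siENG plus BMP-2. Its log2 ratio was -0.19 for BMP-2, beside an SD of 0.13. For siENG over siCont it was 0.44 as deposited and 0.20 relative, and its 2 other probe sets gave 0.42 and 0.33 as deposited, so the siCont BMP-2 array was the low one on all 3.

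The comparison of siENG BMP-2 with vehicle differs in both siRNA and BMP-2, which cannot be told apart there, and it shares an array with each of the others. As deposited, 16 of the 20 collagen genes were above 0 and 4 below, beside 7907 and 2416 of 10332 genes in all. The collagen median was 0.13, or 0.12 without Col2a1, beside 0.25 over all genes. Relative to the median gene 7 collagen genes were above 0 and 13 below, with a median of -0.12. By its measured signals Col2a1, which passed the limit only through the arrays with BMP-2, was the only gene at a ratio of 2 or of 1.5 on either scale. The bound that its vehicle signal allows was at least 2.2-fold as deposited and at least 1.84-fold relative, so a relative ratio of 2 was not established. Of all genes 3.06% as deposited and 1.36% relative were at 2, and 16.4% and 5.76% at 1.5. None of the collagen genes fell to 0.5, beside 0.697% and 1.75%. At the inverse of 1.5 Col12a1 was lower on both scales, with a log2 ratio of -0.61 as deposited. Col5a3 joined it there on the relative scale. Of all genes 3.08% as deposited and 7.44% relative were at that inverse ratio. By 2 robust SDs none was higher and Col12a1 was lower, beside 3.42% and 4.46% of all genes.

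Chains that assemble into the same molecule were set against each other through their ratios, for 7 pairs past the limit. With BMP-2 the log2 ratios of 3 pairs differed by more than their combined SD, those of Col6a3 with Col6a1, of Col6a3 with Col6a2 and of Col5a1 with Col5a3. With siENG over siCont 2 pairs did. Col1a1 exceeded Col1a2 by 0.34, beside a combined SD of 0.25, and Col5a1 exceeded Col5a3 by 0.53, beside 0.44. The second difference rests on the probe set of Col5a1 that the other 2 opposed. Other pairs of genes were not counted in this way, and several genes enter more than 1 pair. Of single genes over the whole array, 66.2% with BMP-2 and 66.5% with siENG over siCont lay within 1 SD. That share is of single genes and not of pairs, so the pair counts cannot show whether partner chains differ from other genes. For siENG BMP-2 over vehicle the same 3 pairs exceeded their combined SD as for BMP-2 over vehicle.

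Several probe sets past the limit, 27 in all, read 12 of the genes, which gives a check within each array but not between cultures. Their log2 ratios had a single sign in 11 of the 12 genes for BMP-2 over vehicle and in 10 for siENG over siCont, or 9 relative to the median gene. The same rate was not taken over all genes. As deposited, 7882 of 10332 genes were above 0 for siENG over siCont, so a shared sign there carries less. The probe sets of a gene differed by a median of 0.10 and 0.09 in the first 2 comparisons. The widest gaps were 0.35 in Col1a2 with BMP-2 and 0.59 in Col5a1 with siENG.

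**Figure D4:**
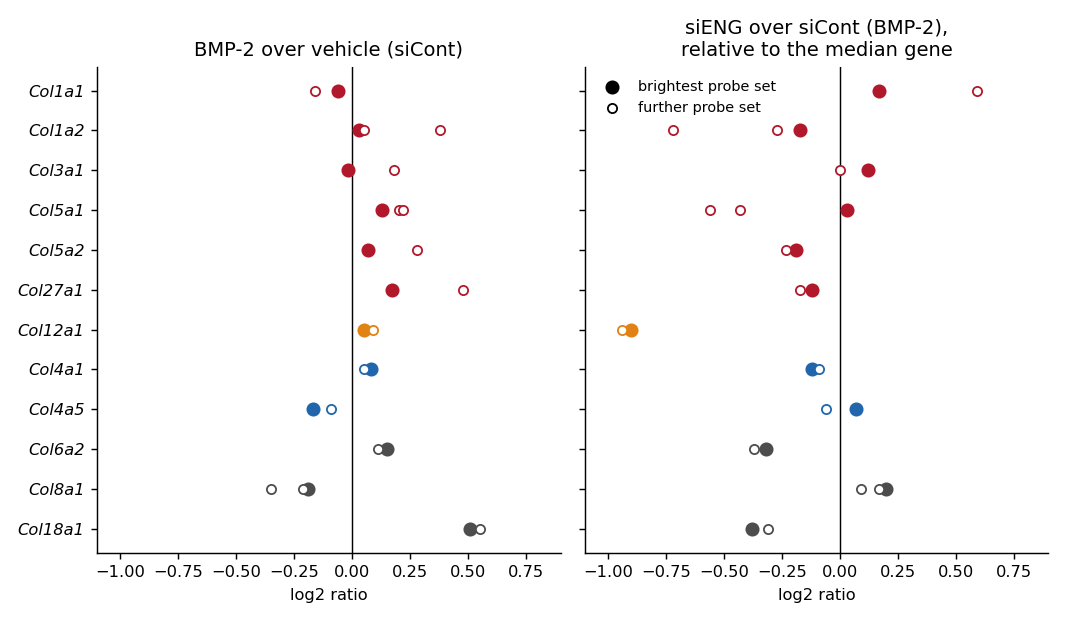
Log2 ratios of every probe set past the signal limit for the 12 collagen genes read by more than 1, for BMP-2 over vehicle (left) and for siENG over siCont relative to the median gene (right). Filled points are the probe set used, open points the others, coloured by class. Both probe sets of Col18a1 lie near 0.5 on the left and both of Col12a1 near -0.9 on the right, while those of Col5a1 fall on both sides of 0 on the right.

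The genes that make, bind and break down collagen were taken from 4 lists. Of 16 matched genes of folding and secretion 15 were past the limit, and none reached a ratio of 2 or 0.5 in either main comparison. Their median log2 ratio was 0.08 with BMP-2 and 0.14 with siENG, or -0.11 relative to the median gene. The named members have the largest log2 ratios as deposited. Relative to the median gene others differed more than the named Klhl12, Hspa5 and Ppib, in the lower direction. They were Sec23a, a coat protein of secretory carriers, with -0.59, Fkbp7 with -0.49, Fkbp14 with -0.47 and Calr with -0.40. Of these Sec23a also differed more than Canx. All were chosen after their values were seen. Canx, a chaperone of glycoproteins, had signals of 2510.0, 2481.5 and 4134.0, and its log2 ratio to siCont was 0.74 as deposited and 0.49 relative. Klhl12, a ubiquitin ligase adaptor for large secretory carriers, gave 0.58 and 0.34 on the same scales. Hspa5, the main chaperone of the endoplasmic reticulum, and Ppib, a proline isomerase of procollagen, each gave 0.45 and 0.21. Serpinh1, the collagen chaperone HSP47, is named beyond the rule for its role and gave 0.32 and 0.08.

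The list of hydroxylation, crosslinking and propeptide removal held the widest differences, with 18 of 23 matched genes past the limit. None reached a ratio of 2 or 0.5 with BMP-2. P4ha1, a catalytic subunit of the prolyl hydroxylase that stabilises the collagen helix, had signals of 423.8 with vehicle, 376.2 with BMP-2 and 1523.0 after siENG plus BMP-2, a log2 ratio over siCont of 2.02 as deposited and 1.78 relative. Plod2, a lysyl hydroxylase, had 1145.7, 1221.6 and 2400.7 and a log2 ratio of 0.97, or 0.73 relative. The siENG array was the high one for both. P4ha2, a second prolyl hydroxylase subunit, gave 0.82 and 0.58 on the same scales.

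Loxl1, a lysyl oxidase that crosslinks matrix fibres, ran the other way. It had 349.4, 426.6 and 227.9, a log2 ratio of siENG over siCont of -0.90 as deposited and -1.15 relative. The list as a whole had a median of 0.00, or -0.24 relative. At a ratio of 2 it held 1 gene on both scales, P4ha1, beside 2.87% of all genes as deposited and 1.36% relative. At 0.5 it held 1 gene on the relative scale, Loxl1, beside 1.64%. Pcolce2, an enhancer of propeptide removal, was chosen after its values were seen, with 861.8, 1432.9 and 872.8 and log2 ratios of 0.73 with BMP-2 and -0.72 with siENG over siCont. The shared siCont BMP-2 array was the high one there. As in the first list, the named members have the largest log2 ratios as deposited. Relative to the median gene Pcolce2, at -0.96, and Bmp1, at -0.82 beside an SD of 0.27, differed more than Plod2 and P4ha2. Bmp1 too was chosen after its values were seen. No unnamed gene past the limit did so in the higher direction.

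Of 9 matched receptors 6 were past the limit. Ddr1, a receptor tyrosine kinase that collagen activates, had signals of 1599.1 with vehicle, 2139.3 with BMP-2 and 1101.6 after siENG plus BMP-2. Its log2 ratio was 0.42 with BMP-2 and -0.96 for siENG over siCont, or -1.20 relative. On that relative scale Ddr1 was the only receptor at a ratio of 0.5, beside 1.64% of all genes. Ddr2, the related receptor of fibrillar collagens, had 294.6, 314.8 and 470.0 and a log2 ratio of 0.58, or 0.34 relative. The siENG array was thus the low one for Ddr1 and the high one for Ddr2. The integrin subunit Itga10 had 92.9, 65.7 and 64.7, with a log2 ratio of -0.50 for BMP-2 over vehicle, beside an SD of 0.32, and of -0.02 for siENG over siCont. Itga1 gave 0.20 and 0.33 in those comparisons, within SDs of 0.30 and 0.40.

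Of 10 proteases that cut collagen 3 were past the limit, and none reached a ratio of 2 or 0.5. Mmp14, a membrane-bound collagenase, had signals of 2416.1, 2377.9 and 1954.1, which for siENG over siCont is a log2 ratio of -0.28, or -0.53 relative. Mmp2, a gelatinase, gave -0.43 and -0.68 on those scales, and Mmp16, another membrane-bound protease, 0.43 and 0.19.

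**Figure D5:**
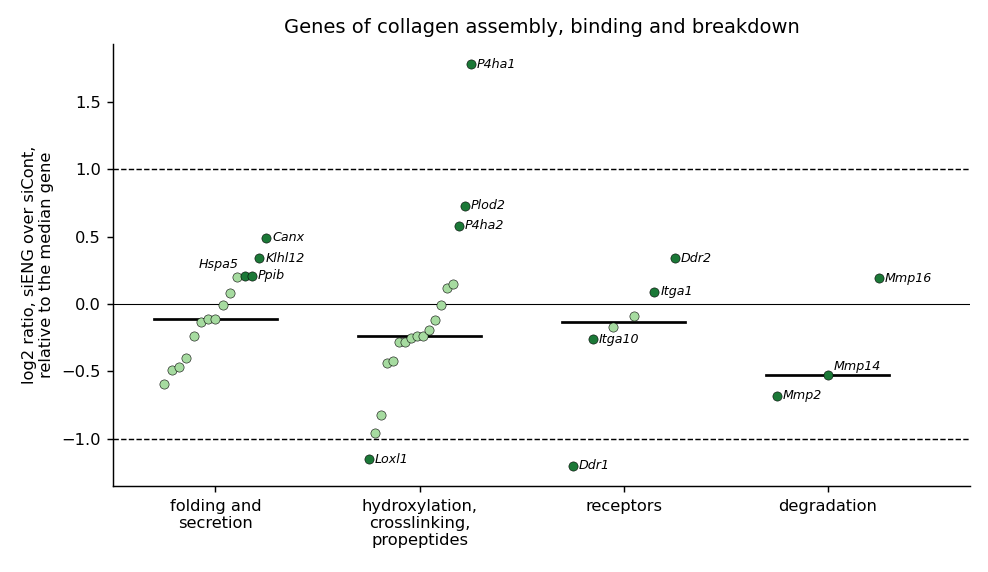
Log2 ratio of siENG over siCont relative to the median gene for the genes past the signal limit in 4 lists of collagen assembly, binding and breakdown. Each point is 1 gene, dark points are named, bars mark list medians and dashed lines ratios of 0.5 and 2. P4ha1 lies at 1.78 while Loxl1 and Ddr1 lie at -1.15 and -1.20.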

How the data were processed

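Total RNA was read on Affymetrix Mouse Genome arrays, 1 per condition. The authors deposited a linear signal intensity per probe set, made with GCOS 1.4 according to the submitters' processing notes. How signals were computed and scaled was not given in the sources used here. Of 45101 probe sets, 64 controls were left out of comparisons. Symbols came from the platform annotation, updated through the RefSeq table of GRCm38.p6; 34958 probe sets had 1 symbol, 932 several and 9211 none. A signal of 0 was set to 0.1. Log2 ratios were taken between single arrays, also relative to the median of all genes past the limit, without a test. Precision was the robust SD (1.4826 times the median absolute deviation) in 20 bins of mean log2 signal over those genes, and the number of arrays limits it.

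Every member past the limit was named, those under it by class, and of each pathway list the 4 members with the largest absolute log2 ratio in the first 2 comparisons. Members, lists and markers were chosen with earlier results of these data known. The calculation was tested on simulated data. Fkbp10, Loxl2, Adamts2, Adamts14, Itga11 and Runx2 are not analysed here. Python 3.11.15 was used with numpy 2.4.6, pandas 2.3.3, statsmodels 0.14.6 and matplotlib 3.10.9. The 10 alternatives were set beforehand, and counting by robust SDs was added later.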

Additional observations from a re-analysis of the deposited data

How the results depend on the processing

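No paired analysis was possible because each condition has 1 array, so no difference between conditions has an error from cultures. Without a signal limit all 42 collagen genes were counted. At ratios of 2 and 0.5 there were then 6 and 6 with BMP-2, and 2 and 4 with siENG over siCont. For siENG BMP-2 over vehicle there were 5 and 7. Apart from Col2a1 these were genes under the limit, from which no ratio is read. The share of all genes is not given for this setting, so the counts are not a result about collagens. With the limit at the 75th percentile 15 genes were left and the count at a ratio of 2 was 0 with BMP-2 and 0 with siENG BMP-2 over vehicle, since Col2a1 was gone. With the limit on the higher signal 2 genes, Col23a1 and Col4a6, were at 0.5 with BMP-2, and 1, Col23a1, with siENG BMP-2 over vehicle. With the mean over probe sets 1 gene, Col5a3, was at 0.5 in each of the comparisons with the siENG array, through a second probe set with signals of 11.7, 9.0 and 1.1. At a ratio of 1.5 the counts were 2 higher with BMP-2, 1 lower with siENG over siCont and 1 lower with siENG BMP-2 over vehicle. A pseudocount of 16 left 0 at a ratio of 2 with siENG BMP-2 over vehicle. Counted by 2 robust SDs, chosen after seeing the data, 3 were higher with BMP-2, 1 was lower with siENG over siCont, and 0 were higher and 1 lower with siENG BMP-2 over vehicle.

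Rescaling moved directions. The median of the collagen genes for siENG over siCont was -0.16 after quantile normalization, -0.18 after median centring, -0.15 after lowess centring and -0.16 after trimmed mean scaling, and 6 of 20 genes changed sign under each. For siENG BMP-2 over vehicle 8 or 9 did. With the mean over probe sets the median for siENG over siCont was -0.07. For BMP-2 over vehicle no collagen gene changed sign under these 4 rescalings, and 2 did with the mean over probe sets. Over all settings the log2 ratio of Col12a1 for siENG over siCont lay between -0.90 and -0.29, and that of Col18a1 for BMP-2 between 0.47 and 0.53. That of Col2a1 lay between 1.05 and 1.93 for BMP-2 over vehicle, and between 0.70 and 1.32 for siENG BMP-2 over vehicle.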
